A study of Mus musculus with 4 samples.

Results

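The 36 genes described here encode enzymes and electron carriers that hold flavin adenine dinucleotide (FAD) or flavin mononucleotide (FMN). They were taken by gene symbol from a list of flavoproteins, drawn up with earlier results of these arrays known, and 18194 genes are named on the array in all. Of the 36, 35 had a probe set named for them, the exception being Por (cytochrome P450 reductase), which is not analysed here. A further gene, Prodh, had a mean signal below the filter described next, so that 34 genes were compared.

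Expression was measured on 4 Affymetrix 3' expression arrays, 1 per culture of 3T3-L1, a mouse fibroblast line that becomes fat cells under insulin, dexamethasone and isobutylmethylxanthine. A culture given control siRNA (siGL3) was compared with cultures given siRNA against aof2 (now Kdm1a, encoding the FAD-dependent histone demethylase LSD1) or rfk (encoding riboflavin kinase), each induced 24 h after transfection and harvested 24 h later. In the fourth culture tranylcypromine, an inhibitor of LSD1 and monoamine oxidases, was added with the induction mixture, and no siRNA is recorded for that culture. All cultures grew in medium with 25 mM glucose and 10% serum, and all stem from this 1 cell line. Because each condition rests on 1 array, differences cannot be tested, and every value below is a single measurement.

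Riboflavin kinase phosphorylates riboflavin to FMN, and FAD synthase, encoded by Flad1, turns FMN into FAD. Enzymes that need these cofactors carry out the first step of each round of mitochondrial beta-oxidation, the oxidation of succinate and of several amino acids, and disulphide formation outside the cytosol. In a maturing fat cell they serve the burning of fatty acids and branched-chain amino acids, while LSD1 uses the same FAD on chromatin. The comparisons ask whether the transcripts of such flavin clients differ when Rfk is knocked down, and whether they do so when LSD1 is knocked down or inhibited.

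Values are MAS5 signals, a linear intensity per probe set, whose 2% trimmed mean was 500.003 on each array. Where a gene had several probe sets, that of highest mean log2 signal stands for it. A gene was compared when this mean reached 50.9 on the signal scale, the median over all probe sets. Among the 10788 genes that did so, those reaching the 75th percentile (a signal of 414) are called bright, and they include 26 of the flavoprotein genes. Differences are log2 values against the control array unless stated, and a gene is called higher or lower when its signals lay at least 1.5-fold apart, or 0.58 on the log2 scale. Signals of different probe sets are not levels that can be ranked between genes. As 1 measure of array error, the 18 bacterial hybridisation control probe sets differed from the control array by -0.26 to 0.21, with an SD of 0.098 over the 3 comparisons. The 24 poly-A control probe sets differed more widely, by -0.25 to 0.87. Their means were 0.29, 0.17 and -0.01 with aof2 siRNA, rfk siRNA and tranylcypromine, and their SDs 0.16, 0.18 and 0.19. Flavoprotein genes with several probe sets past the filter numbered 15, and their probe sets lay a median of 0.20 to 0.21 apart. All probe sets of a gene lay on the same side of control for 10 of the 15 with rfk siRNA, 6 with aof2 siRNA and 11 with tranylcypromine, and the widest gaps, all of Txnrd2, were 1.12, 1.85 and 2.48. As a check on scaling, arrays were also centred on their median probe set, which shifts every gene of an array alike. The median over all genes compared then moved to -0.08 with aof2 siRNA and with tranylcypromine, where 38.1% and 39.7% of all genes lay above control, and it stayed at -0.01 with rfk siRNA.

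The targeted genes were low where the labels place the siRNA. Rfk had signals of 2122 (control), 2018 (aof2 siRNA), 573 (rfk siRNA) and 2334 (tranylcypromine), and Kdm1a had signals of 3494, 681, 3471 and 3054 in the same order. Of 12 adipocyte markers 10 were named, and their summed signals were 9226, 6726, 7140 and 6199 in that order. Adipoq, with signals of 4.32 to 22.0, and Cd36, Cidec and Slc2a4 did not reach the filter, whereas Fabp4, Pparg, Lpl, Cebpa, Lipe and Retn did. Fabp4, a lipid chaperone abundant in fat cells, had signals of 2463, 1301, 791 and 1093, and Pparg, the master regulator of adipogenesis, 1047, 963, 615 and 771, both lowest with rfk siRNA. Lpl, the lipoprotein lipase, which makes up most of the sum, had 5272, 3919, 5317 and 3808. Cebpa had signals of 92, 135, 93 and 112 and Lipe 186, 238, 172 and 249. Both of these were above control with aof2 siRNA and tranylcypromine. Retn had 81, 66, 62 and 38. The 7 named preadipocyte markers summed to 21281, 25225, 23567 and 21676, but did not move alike. Col1a1 was the lowest of them against control, at -0.55, -1.01 and -0.98 with aof2 siRNA, rfk siRNA and tranylcypromine. The highest were Pdgfra (0.46), Sox9 (0.71) and Pdgfra (0.21) in that order. In each of the macrophage, endothelial, epithelial and muscle lists only 1 marker passed the filter, and their summed signals ranged over the arrays from 179 to 267, 59.4 to 114, 268 to 352 and 134 to 259. In such bulk RNA, fewer cells of a type and less RNA per cell cannot be told apart, and what part these cell states had in the values below was not tested.

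**Figure D1:**
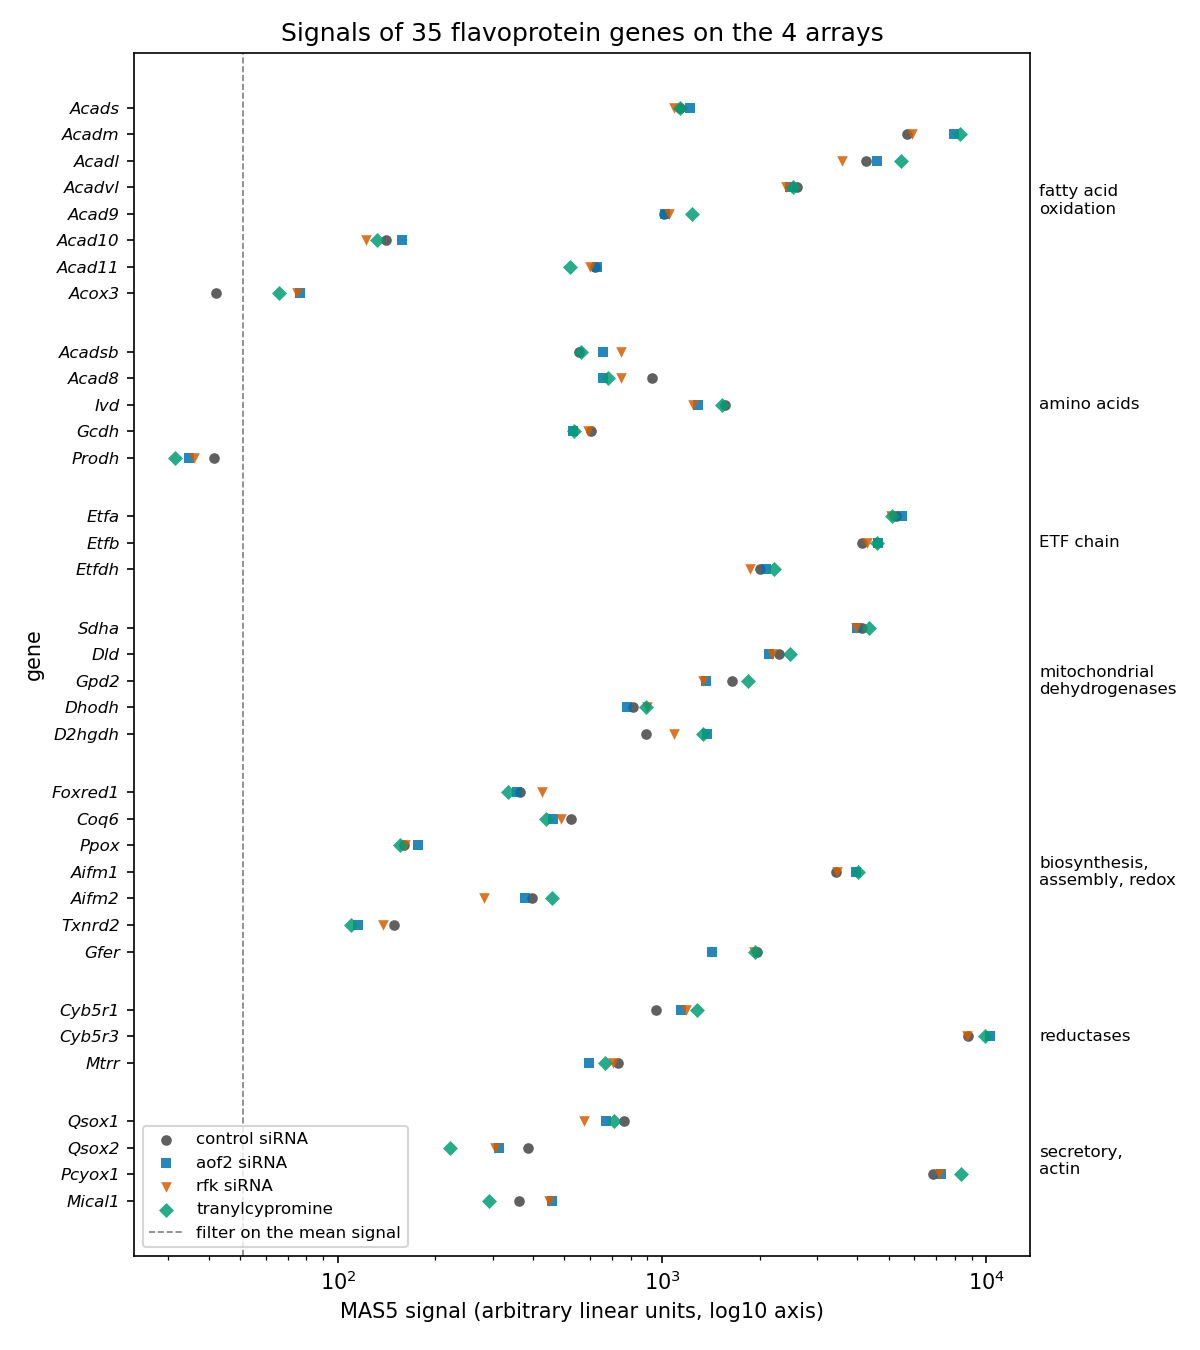
MAS5 signal (log10 axis, arbitrary linear units) of the 35 flavoprotein genes with a named probe set, grouped by role, with 1 point for each of the 4 arrays and the filter on the mean signal as a dashed line. For most genes the 4 points nearly coincide: in 28 of the 34 genes compared the highest array was less than 1.5-fold above the lowest.

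The transcripts of flavin-dependent enzymes differed little between the 4 cultures. The highest signal of a gene exceeded its lowest by a median of 1.24-fold over the 34 genes, with a range of 1.08-fold for Etfa to 1.81-fold for Acox3. The same median was 1.31-fold over all 10788 genes compared. Among bright genes it was 1.22-fold for the 26 flavoprotein genes and 1.25-fold for all 6873. Less than 1.5-fold separated highest and lowest in 82.4% of the flavoprotein genes and in 73.5% of all genes compared, and in 92.3% and 85.8% of the bright ones.

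With Rfk at 27.0% of its control signal, no flavoprotein gene compared was at least 1.5-fold lower by the probe set that stands for it, and Acox3 was the single gene at least 1.5-fold higher. Over all genes compared, 3.8% were that much lower and 3.92% that much higher. The 34 genes had a median difference of -0.05, beside -0.01 for all genes, and ran from -0.49 to 0.84. Below control lay 21 of the 34; 13 lay above it, where 48.5% of all genes did. The rfk siRNA array was, by the probe sets used, the lowest of the 4 for 12 of the 34 genes, beside 27% of all genes, and the highest for 3 (Acadsb, Dhodh and Foxred1), beside 25.1%. With arrays centred on their medians, which lowers the aof2 siRNA and tranylcypromine arrays against the others, these counts were 7 and 5. The shares of all genes shift with that centring too and were not counted, so that 7 and 5 have no share to be set against. The median size of a difference, whatever its sign, was 0.11 for the flavoprotein genes and 0.16 for all genes. With aof2 siRNA it was 0.19 beside 0.18, and with tranylcypromine 0.17 beside 0.21. Among bright genes it was 0.07 beside 0.13 with rfk siRNA, 0.19 beside 0.15 with aof2 siRNA and 0.16 beside 0.17 with tranylcypromine.

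**Figure D2:**
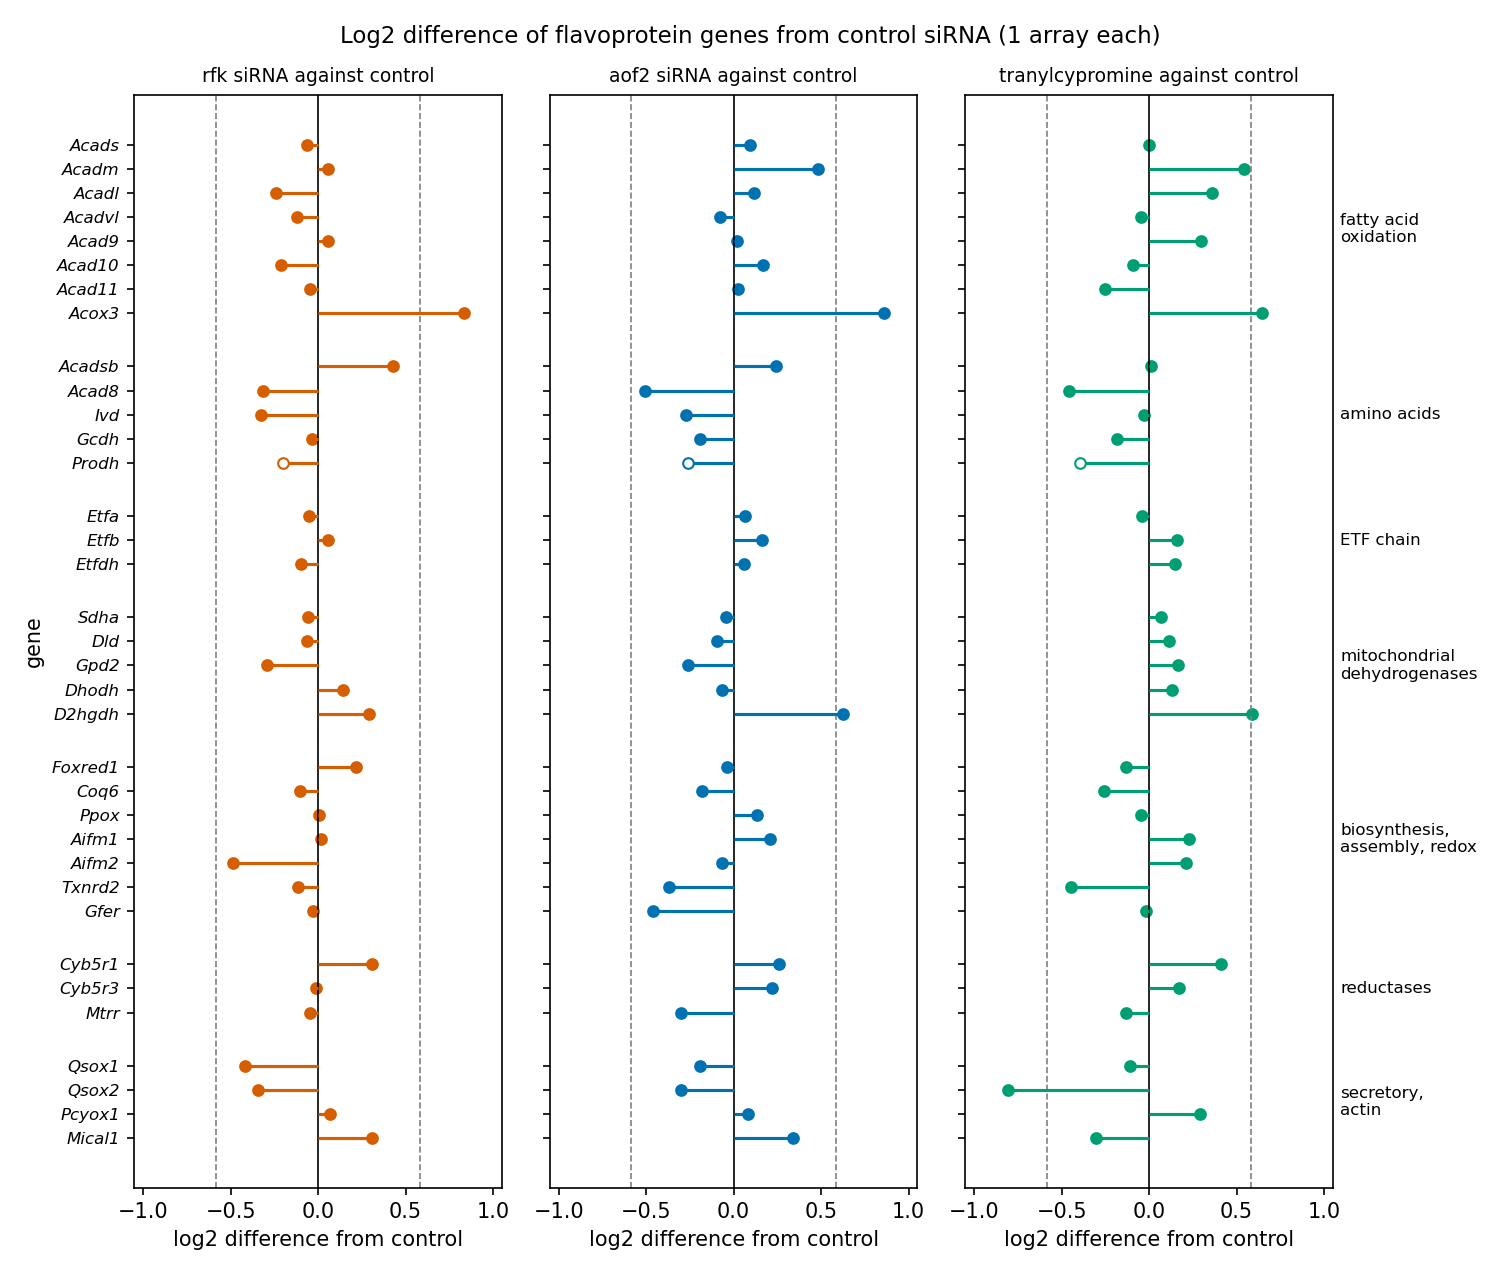
Log2 difference from the control siRNA array for the 35 flavoprotein genes with a named probe set (1 array per condition), in the arrays with rfk siRNA, aof2 siRNA and tranylcypromine. Dashed lines mark 1.5-fold and the open circle is Prodh, which did not pass the filter. Most points lie between the dashed lines, with Acox3 beyond them in all 3 panels, D2hgdh in 2 and Qsox2 in 1.

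Promoter sequence was set beside these values for the genes the comparisons turned on. RefSeq windows of GRCm38.p6 were at hand for 33 of the 36 genes, and the 250 bases before the transcript start were searched on both strands. The nuclear receptor hexamer AGGTCA was found in 5 of the 33 genes, or 15.2%, and in 14.0% of all 32851 windows, non-coding genes included. The longer ERR element TNAAGGTCA, which contains that hexamer, was found in 0 of the 33 and in 1.14% of all windows. The NRF1 site (GCGCA, any base, then GCGC) was found in 5 of 33 (Acad10, Etfb, Etfdh, Mtrr and Sdha), or 15.2%, and in 3.74% of all windows. CCAAT was found in 15 of 33, or 45.5%, and in 33.8% of all windows, and the cAMP response element TGACGTCA in 0 of 33 and 1.55%. A match is a description of the letters only, and a window without a match says nothing about a factor.

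The windows of 4 genes are shown, those of Acadm and D2hgdh as genes above control with aof2 siRNA and tranylcypromine, of Aifm2 as the gene that by the probe sets used lay furthest below control with rfk siRNA, and of Etfdh as one that hardly differed. They run 5′ to 3′ along the gene, with the hexamer (on either strand), NRF1 sites and CCAAT boxes in capitals. They lie at chr3:153944644-153944893 on the minus strand (Acadm), chr1:93824990-93825239 on the plus strand (D2hgdh), chr10:61720399-61720648 on the plus strand (Aifm2) and chr3:79628768-79629017 on the minus strand (Etfdh).
Acadm: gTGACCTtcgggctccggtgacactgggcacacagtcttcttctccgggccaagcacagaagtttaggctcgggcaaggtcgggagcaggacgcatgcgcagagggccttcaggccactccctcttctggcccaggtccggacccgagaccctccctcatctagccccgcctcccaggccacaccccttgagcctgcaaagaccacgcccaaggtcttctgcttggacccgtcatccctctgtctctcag
D2hgdh: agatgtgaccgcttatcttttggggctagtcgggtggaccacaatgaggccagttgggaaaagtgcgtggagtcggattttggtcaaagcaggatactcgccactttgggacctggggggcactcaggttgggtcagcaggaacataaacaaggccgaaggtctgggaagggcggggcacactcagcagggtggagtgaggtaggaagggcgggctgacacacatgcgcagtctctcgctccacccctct
Aifm2: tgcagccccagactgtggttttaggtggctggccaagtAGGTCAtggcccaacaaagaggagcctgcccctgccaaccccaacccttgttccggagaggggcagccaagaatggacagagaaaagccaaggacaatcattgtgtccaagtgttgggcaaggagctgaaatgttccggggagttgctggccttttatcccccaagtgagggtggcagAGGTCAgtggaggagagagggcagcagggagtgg
Etfdh: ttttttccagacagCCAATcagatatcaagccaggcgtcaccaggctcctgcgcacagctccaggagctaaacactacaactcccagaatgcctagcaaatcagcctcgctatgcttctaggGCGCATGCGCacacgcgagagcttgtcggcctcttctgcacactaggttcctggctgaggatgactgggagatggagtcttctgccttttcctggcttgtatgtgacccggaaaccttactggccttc
Acadm has the hexamer on the opposite strand at the far end of the window, D2hgdh has none of the 3 motifs, Aifm2 has the hexamer in 2 places, and Etfdh has an NRF1 site and a CCAAT box.

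Acyl-CoA dehydrogenases of fatty acid oxidation take electrons from acyl-CoA of a given chain length onto FAD. Acadm, the medium-chain enzyme, had signals of 5680 in control, 7945 with aof2 siRNA, 5898 with rfk siRNA and 8279 with tranylcypromine. The LSD1-depleted and inhibitor-treated cultures thus formed a high pair and the control and rfk siRNA cultures a low pair. Relative to control, Acadm was at 0.48 (1.40-fold) under aof2 knockdown and at 0.54 (1.46-fold) under the inhibitor, both short of the threshold, and at 0.05 with rfk siRNA. Over all genes compared, 9.07% and 8.42% lay as far or further above control. Acadm has a single named probe set, so that no other one can be set beside it, and it holds the hexamer in the window printed for it.

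Acadl, the long-chain enzyme, had signals of 4242, 4593, 3582 and 5441 in the order control, aof2 siRNA, rfk siRNA and tranylcypromine. It was lowest with rfk siRNA (-0.24) and highest with tranylcypromine (0.36), and these arrays were 0.60 apart. Acads (short-chain) and Acadvl (very long-chain) stayed within 0.12 of control in every array. Acad9, which also helps to assemble respiratory complex I, lay between 0.02 and 0.06 with the siRNAs and at 0.29 with tranylcypromine, although its further probe set past the filter gave 0.47 with rfk siRNA and 0.10 with tranylcypromine. Acad10 ranged from -0.21 to 0.17 and Acad11 from -0.25 to 0.03. A further probe set of Acad11, past the filter too, gave -0.26 with rfk siRNA and -0.51 with tranylcypromine.

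Acox3, a peroxisomal oxidase of branched-chain acyl-CoA, was the single gene past 1.5-fold in all 3 comparisons. Its signals were 42 in control, 76 with aof2 siRNA, 75 with rfk siRNA and 66 with tranylcypromine. The control array stood alone below the other arrays, and its signal was under the filter value of 50.9. The differences of 0.86, 0.84 and 0.65 share that 1 dim control value, and a further, dimmer probe set gave 0.03, 0.40 and -0.54. Set against the mean log2 signal of the remaining 3 arrays, control included, Acox3 was at 0.36, 0.33 and 0.08, in that order.

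In total 7 of these 8 genes were above control with aof2 siRNA, where 49.3% of all genes were, and their median was 0.10. On median-centred arrays 5 of 8 were above control, where 38.1% of all genes were, and the median was 0.03 beside -0.08 for all genes. With rfk siRNA 3 of 8 were above control (48.5% of all genes), with a median of -0.06, and with tranylcypromine 4 of 8 (48% of all genes), with a median of 0.15. The 16 genes of the carnitine shuttle and of the flavin-free steps of beta-oxidation had medians of 0.09 (12 above control), -0.01 (7 above) and 0.03 (9 above) with aof2 siRNA, rfk siRNA and tranylcypromine. On median-centred arrays 8 of the 16 were above control with aof2 siRNA, and their median was 0.01 beside -0.08 for all genes. Acaa2, the thiolase of the last step, led them at 0.59 with aof2 siRNA and 0.71 with tranylcypromine, while Cpt2 (-0.37) and Decr1 (-0.27) were lowest with rfk siRNA.

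Electrons from these dehydrogenases pass to the electron transfer flavoprotein, made of the Etfa and Etfb products, and from it through the Etfdh product to ubiquinone. Etfa had signals of 5266, 5506, 5084 and 5120 in the order control, aof2 siRNA, rfk siRNA and tranylcypromine, Etfb 4130, 4615, 4293 and 4607, and Etfdh 1997, 2085, 1867 and 2214. None of the 3 differed from control by more than 0.16 in any array, a value that has no culture-to-culture spread to be set against. All 3 were slightly above control with aof2 siRNA, where 49.3% of all genes were, and so few genes say little beside this share. On median-centred arrays 1 was above control, where 38.1% of all genes were, and their median was -0.01 beside -0.08 for all genes.

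Of the 4 dehydrogenases of amino acid breakdown that were compared, 3 lay below control in each comparison, where 48.5%, 49.3% and 48% of all genes lay above it with rfk siRNA, aof2 siRNA and tranylcypromine, and their median stood at -0.18 under rfk siRNA, -0.23 under aof2 siRNA and -0.11 under tranylcypromine. That leaves 1 of the 4 above control, and so few genes say little beside these shares. Acad8, the isobutyryl-CoA dehydrogenase of valine breakdown, had signals of 933, 655, 749 and 679, so that control was highest, and stood at -0.51, -0.32 and -0.46 with aof2 siRNA, rfk siRNA and tranylcypromine. Its further probe set gave 0.13, -0.10 and -0.14. Ivd, the isovaleryl-CoA dehydrogenase of leucine breakdown, had signals of 1565, 1294, 1246 and 1531. It was at -0.33 with rfk siRNA, where its further probe set gave -0.40, and at -0.27 with aof2 siRNA, where that probe set gave 0.02. Acadsb, which acts on isoleucine products, went the other way with signals of 556, 656, 749 and 561, and was 1.35-fold above control with rfk siRNA (0.43). Gcdh, of lysine and tryptophan breakdown, lay between -0.19 and -0.03. Prodh, the proline dehydrogenase, had signals of only 31.5 to 41.4.

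Among the other mitochondrial dehydrogenases, D2hgdh, which oxidises D-2-hydroxyglutarate, lay furthest above control. Its signals were 891 in control, 1375 with aof2 siRNA, 1088 with rfk siRNA and 1338 with tranylcypromine, with control lowest. Its difference was 0.63 with aof2 siRNA, or 1.54-fold, and 0.59 with tranylcypromine, just past the threshold. The probe set used can match several transcripts. A dimmer probe set without that limit gave -0.27 with aof2 siRNA, the opposite direction, and 0.26 with tranylcypromine. With rfk siRNA both probe sets gave 0.29.

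Sdha, the flavin-bearing subunit of succinate dehydrogenase, had signals of 4127, 4000, 3964 and 4334 and Dld, the flavin subunit shared by the 2-oxo acid dehydrogenases, 2285, 2139, 2187 and 2476, all within 0.12 of control. Gpd2, the glycerol phosphate shuttle enzyme, had 1637, 1364, 1339 and 1838, and was at -0.26 and -0.29 with the siRNAs and at 0.17 with tranylcypromine. Its further probe sets past the filter gave -0.02 and 0.25 with aof2 siRNA and -0.21 and 0.05 with rfk siRNA. Dhodh, the FMN enzyme of pyrimidine synthesis, lay between -0.07 and 0.14. Its further probe set gave -0.11, -0.16 and -0.10 with aof2 siRNA, rfk siRNA and tranylcypromine. By the probe sets used, all 5 genes of this group, D2hgdh included, were above control with tranylcypromine, by a median of 0.13, beside 48% of all genes and a median of -0.02. On median-centred arrays all 5 were above control too, by a median of 0.07 beside -0.08 for all genes. Without that centring, further probe sets past the filter lay below control with tranylcypromine for Sdha (-0.05) and Dhodh, and above it for Gpd2 and D2hgdh. Partner subunits and assembly factors without flavin, 15 genes, had medians of -0.04, -0.03 and -0.08 with aof2 siRNA, rfk siRNA and tranylcypromine. Among them Pdhx (-0.53) and Pdhb (-0.45) of the pyruvate dehydrogenase complex were lowest with rfk siRNA, and Pdha1 was at 0.51 and Bckdhb at -0.66 with tranylcypromine.

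By the probe sets used, Aifm2 was the gene furthest below control with rfk siRNA. Its product, FSP1, is an NADH-dependent reductase of ubiquinone that protects membranes from lipid peroxidation. Its signals were 396 in control, 378 with aof2 siRNA, 282 with rfk siRNA and 458 with tranylcypromine, so that the rfk siRNA array stood alone at the low end. It was at 71.3% of control with rfk siRNA (-0.49), a size that 5.66% of all genes compared reached or passed downward. The other probe sets gave 74.8% and 78.1% of control, so that all 3 lay in the same direction. The order depended on the probe set: without those that can match several transcripts Aifm2 was at -0.36 and Qsox1 at -0.42, and averaged over all probe sets, dim ones included, they were at -0.42 and -0.71. The average for Qsox1 takes in probe sets with control signals of only 1.99 and 13.7. It fell below the filter, so that Qsox1 was not among the genes compared under that setting. Set against the remaining 3 arrays together Aifm2 was at -0.54, and the tranylcypromine array lay 0.70 above the rfk siRNA array. Aifm1, the mitochondrial apoptosis-inducing factor that imports respiratory chain proteins, was at 0.02 with rfk siRNA and at 0.21 and 0.23 with aof2 siRNA and tranylcypromine.

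Gfer, the sulphhydryl oxidase that reoxidises the import receptor encoded by Chchd4, was low with aof2 siRNA alone. Its signals were 1955, 1421, 1914 and 1934 in the order control, aof2 siRNA, rfk siRNA and tranylcypromine, which puts 3 arrays within 0.03 of each other. It stood at 72.7% of control with aof2 siRNA (-0.46), and its further probe set gave -0.50. Chchd4 had signals of 1652, 1165, 1413 and 1347, and was at -0.50, -0.23 and -0.29.

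Txnrd2, the mitochondrial thioredoxin reductase, had signals of 149, 115, 138 and 109. Its 4 probe sets past the filter disagreed, from -0.83 (56.2% of control) to 0.28 with rfk siRNA, from -1.71 to 0.13 with aof2 siRNA and from -1.77 to 0.71 with tranylcypromine, so that no direction can be given. Coq6, a hydroxylase of ubiquinone synthesis, had signals of 524, 462, 487 and 438 and was lowest with tranylcypromine (-0.26). Foxred1, a complex I assembly factor, ranged from -0.13 to 0.22 and Ppox, of haem synthesis, from -0.05 to 0.14.

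Of the reductases outside the mitochondrial matrix, Cyb5r1, a cytochrome b5 reductase, had signals of 960, 1147, 1186 and 1277. Control was lowest, and the differences were 0.26, 0.30 and 0.41 with aof2 siRNA, rfk siRNA and tranylcypromine. Cyb5r3, the main cytochrome b5 reductase, was at 0.22, -0.01 and 0.17, and its 3 probe sets past the filter lay between 0.22 and 0.28 with aof2 siRNA. Mtrr, which reactivates methionine synthase and carries both FMN and FAD, had signals of 731, 594, 708 and 666, and was lowest with aof2 siRNA (-0.30).

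In the secretory pathway, Qsox1 and Qsox2 encode quiescin sulphhydryl oxidases, which introduce disulphides. Qsox2 had signals of 387 in control, 313 with aof2 siRNA, 304 with rfk siRNA and 221 with tranylcypromine. By the probe sets used, it was the only flavoprotein gene compared that lay at least 1.5-fold below control in any array, at 57.2% of control with tranylcypromine (-0.81). Over all genes compared, 4.77% lay at least 1.5-fold below control there, and 2.17% lay as far below it as Qsox2 or further. Qsox1 had signals of 765, 670, 573 and 708, was lowest with rfk siRNA (-0.42), and its further probe set past the filter gave -0.21. Pcyox1, which degrades prenylcysteine in lysosomes, was at 0.29 with tranylcypromine, and its other probe sets gave 0.30 and 0.36. Mical1, an actin-oxidising monooxygenase, had signals of 362, 458, 448 and 293. It was above control with the siRNAs (0.34 and 0.31) and below it with tranylcypromine (-0.30). Its further probe set gave -0.02, 0.02 and -0.52.

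**Figure D3:**
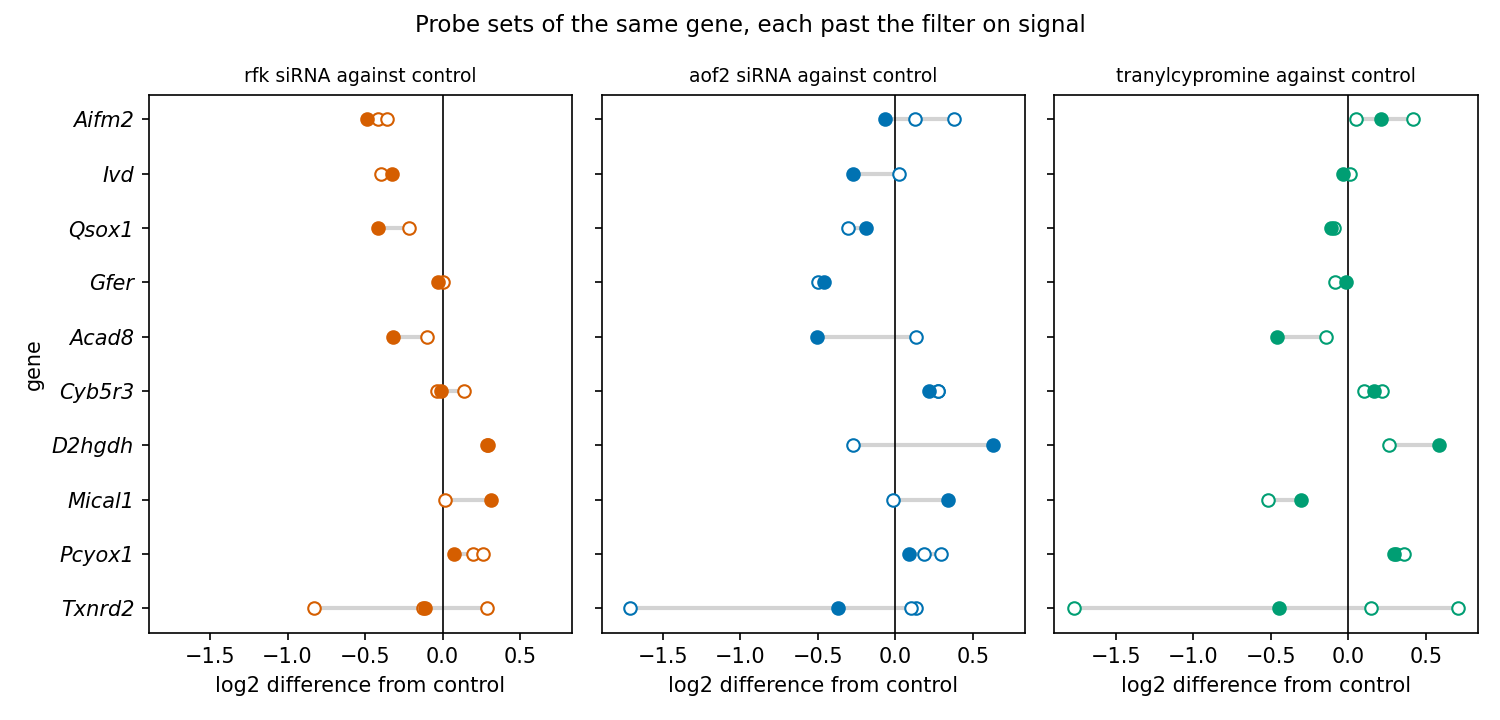
Log2 difference from control for each probe set past the filter of 10 flavoprotein genes, in the rfk siRNA, aof2 siRNA and tranylcypromine arrays. Filled circles are the probe sets used for the gene, open circles the others, and grey lines span them. Aifm2 and Ivd with rfk siRNA and Gfer with aof2 siRNA lie closely together below 0, whereas Txnrd2 spreads from -1.77 to 0.71 with tranylcypromine.

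In numbers, 2 of the 34 genes (Acox3 and D2hgdh) were at least 1.5-fold above control with aof2 siRNA and 0 were that far below it, beside 6.26% and 2.88% of all genes. With tranylcypromine the same 2 were above and Qsox2 was below, beside 7.48% and 4.77%. No gene reached 2-fold in any comparison, a size that 1.73% of all genes reached in either direction with rfk siRNA, 2.15% with aof2 siRNA and 3.18% with tranylcypromine. Medians of the 34 genes were 0.02 and 0.01 with aof2 siRNA and tranylcypromine, beside -0.004 and -0.02 for all genes. Above control were 18 and 17 of them, beside 49.3% and 48% of all genes. On median-centred arrays 14 and 16 were above control, beside 38.1% and 39.7%. All 3 comparisons use the same control array, so that a low or high control value enters each of them.

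Comparisons that leave the control array out gave the following on arrays not centred on their medians. The median probe set had signals of 53.4 with rfk siRNA, 56.2 with aof2 siRNA and 55.6 with tranylcypromine. Centring thus lowers the last 2 arrays against the rfk siRNA array, and small differences can change sign. The counts of genes higher or lower were not repeated with it, so that they hold for this scaling only. Between the siRNA cultures, 22 of the 34 genes were lower with rfk siRNA than with aof2 siRNA and 12 higher, where 48.5% of all genes were higher. The number at least 1.5-fold apart was 0, against 6.28% of all genes lower and 3.22% higher by that much. The lowest were Acadm at -0.43 and Aifm2 at -0.42, and the highest was Gfer at 0.43. Between tranylcypromine and rfk siRNA, 21 of the 34 were higher with tranylcypromine, beside 50.7% of all genes. Aifm2 (0.70) and Acadl (0.60) were at least 1.5-fold higher with tranylcypromine and Mical1 (-0.61) that much lower, beside 7.87% and 5.55% of all genes. Between tranylcypromine and aof2 siRNA, which address LSD1 by inhibitor and by knockdown, Mical1 (-0.65) was at least 1.5-fold lower with the inhibitor, as were 4.23% of all genes. The number that much higher was 0, beside 3.54%, and 19 of the 34 were higher by any amount, beside 50%. Qsox2 was at -0.50, Gfer at 0.44 and Gpd2 at 0.43 in that comparison, while Acadm (0.06) and D2hgdh (-0.04) had nearly equal signals. The probe set used for Mical1 can match several transcripts. A further Mical1 probe set past the filter had signals of 269 with aof2 siRNA, 275 with rfk siRNA and 190 with tranylcypromine, less than 1.5-fold apart. The tranylcypromine culture differs from the others in transfection as well, as far as the labels go, and these cannot be told apart.

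Flavoproteins outside the list were looked at in the same way. Of 70 further FAD and FMN enzymes 61 were named on the array and 38 passed the filter, LSD1's own gene Kdm1a among them. With rfk siRNA 14 of the 38 were above control, beside 48.5% of all genes, with a median of -0.05. Their median size of a difference there was 0.18, beside 0.16 for all genes. At least 1.5-fold higher were Mical2 (0.77) and Pcyox1l (0.66), beside 3.92% of all genes, and the flavoprotein clock gene Cry1 (-0.59) was the single one that far below control, beside 3.8%. Mical2 had signals of 37.1 in control, 51.2 with aof2 siRNA, 63.3 with rfk siRNA and 60.2 with tranylcypromine, so that its control signal was under the filter value and its folds share that dim value. With aof2 siRNA, Kdm1a (-2.36), Cry1 (-1.39) and the endoplasmic reticulum oxidase Ero1a (-0.84) were at least 1.5-fold lower, beside 2.88% of all genes. Further probe sets of Ero1a past the filter gave -0.85 and -0.32, the latter short of 1.5-fold. Sardh (0.64) and Nos3 (0.61) were at least 1.5-fold higher with aof2 siRNA, beside 6.26% of all genes. There 17 of the 38 were above control, beside 49.3%, with a median of -0.04. With tranylcypromine 20 of the 38 were above control, beside 48%, with a median of 0.03. Pcyox1l (0.72) and Mical2 (0.70, over the dim control value) were at least 1.5-fold higher, beside 7.48%, and Ero1b (-0.40) was lowest. Of the genes of flavin supply besides Rfk, Flad1 lay between -0.08 and 0.19, the mitochondrial folate and FAD carrier Slc25a32 was at -0.37, -0.02 and -0.30 with aof2 siRNA, rfk siRNA and tranylcypromine, and the riboflavin transporter Slc52a3 did not pass the filter, with signals of 24.6 to 66.7.

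**Figure D4:**
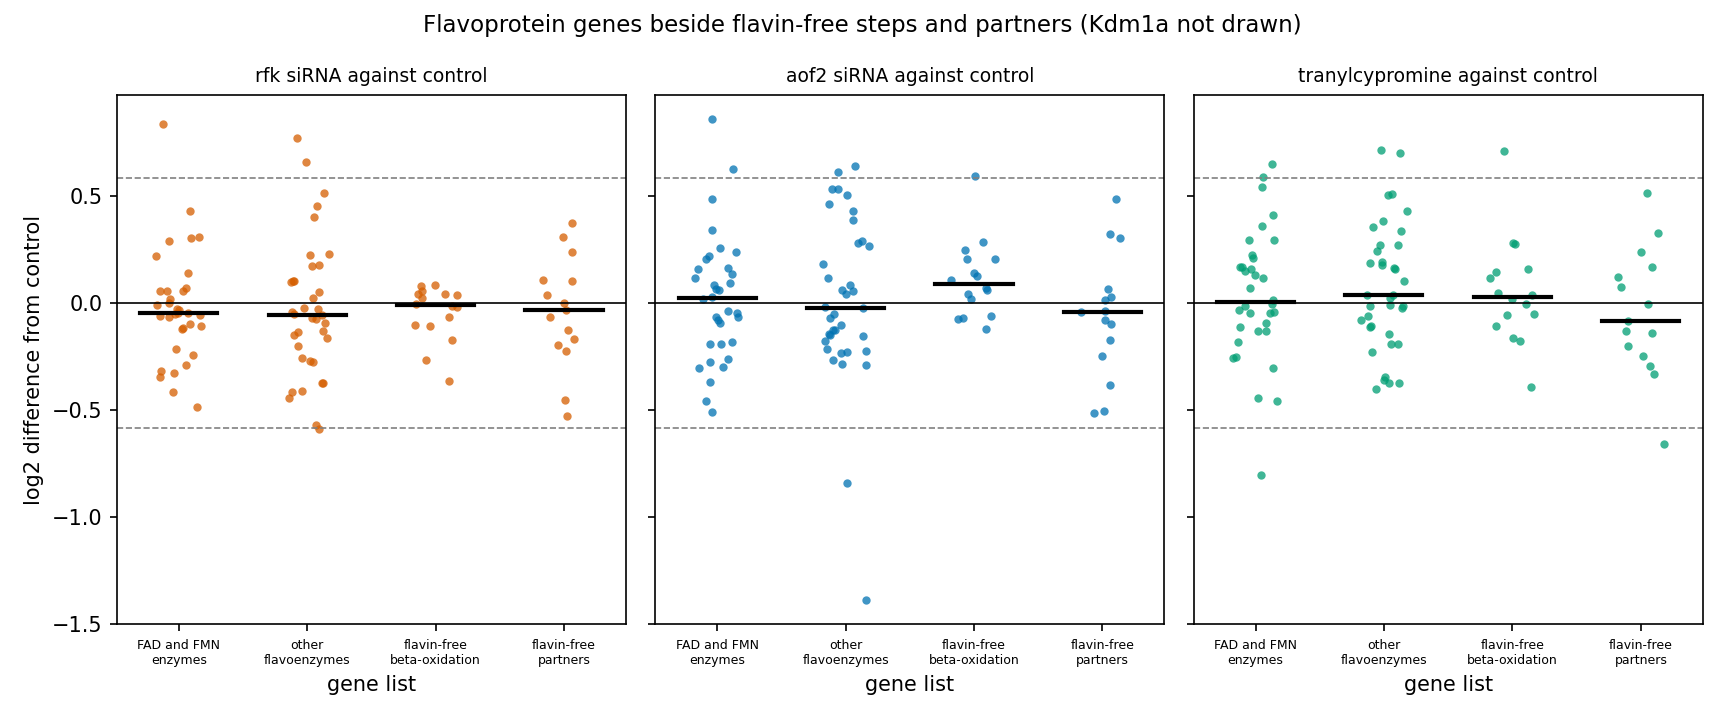
Log2 difference from control of each gene past the filter (points) and the list median (black bars) for the listed FAD and FMN enzymes, further flavoenzymes, flavin-free steps of beta-oxidation with the carnitine shuttle, and flavin-free partner subunits, in the rfk siRNA, aof2 siRNA and tranylcypromine arrays. Dashed lines mark 1.5-fold, horizontal positions within a list are random, and Kdm1a, the targeted gene, is left out. The medians lie between -0.08 and 0.09.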

How the data were processed

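Total RNA of 4 cultures, 250 ng each, was labelled for Affymetrix 3' arrays of 45101 probe sets. The deposited values are linear MAS5 signal intensities that the authors made with MAS5, per the submitters' processing notes. The trimmed means are equal on all arrays, as after scaling each one. For the MAS5 version, target value and detection calls the sources used here give nothing. MAS5 has no floor, so that log2 differences of dim probe sets scatter widely, and equal trimmed means hide differences in total RNA per cell.

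No offset was added before the log2 step. Symbols came from the platform annotation (34958 probe sets with 1 symbol, 932 with several, 9211 unnamed here), updated through RefSeq gene identifiers, which matched for 34754 and changed 0. Genes with signals on every array were those at least 1.5-fold from control and the 5 highest and 5 lowest differences in each comparison, and in the other lists the 2 highest and 2 lowest; some further members and genes are given where they complete a group, chosen after their values were seen. The members, the lists and the 1.5-fold threshold were chosen with earlier results of these data known. The number of arrays limits the precision. The fold steps were run on simulated data with known changes put in, which checks the calculation and says nothing about the error of these arrays. Alternatives concerned scaling, an offset, the filter, the probe set, the reference and the threshold. Tables were handled in pandas 2.3.3 and NumPy 2.4.6 and plots drawn with matplotlib 3.10.9, under Python 3.11.15.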

Additional observations from a re-analysis of the deposited data

How the results depend on the processing

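The median difference of the flavoprotein genes kept its sign under every setting tried with rfk siRNA (-0.06 to -0.03). With aof2 siRNA it turned from 0.02 to -0.06 on median-centred arrays (all genes -0.08) and to -0.04 without probe sets that can match several transcripts, and with tranylcypromine from 0.01 to -0.06 and -0.04, to -0.03 with the mean of all probe sets and to -0.003 with no filter. The number above control stayed within 1.5 times throughout.

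Counts of genes at least 1.5-fold from control are small and shifted by 1 or 2 genes. With rfk siRNA the 1 higher gene became 0 with an offset of 50, with the stricter filter, against the 3 remaining arrays together and at 2-fold, and 2 (Acad9 and Dld) with the mean of all probe sets, where dim probe sets count as much as bright ones. The 0 lower genes became 1 with that mean (Sdha) and 1 without probe sets that can match several transcripts (Txnrd2). Qsox1 fell below the filter with the mean of all probe sets and is not counted there. With aof2 siRNA the 2 higher genes became 1 on median-centred arrays and without multiply matching probe sets (Acox3), and 1 with the offset and a stricter signal filter (D2hgdh). They became 0 against the other arrays and at 2-fold. Averaging over all probe sets gave 1 gene as well, but this was Dld, and neither Acox3 nor D2hgdh was called. The 0 lower genes became 1 on median-centred arrays (Acad8) and 1 without multiply matching probe sets (Txnrd2), and D2hgdh then stood at -0.27. With tranylcypromine the 2 higher genes became 0 on median-centred arrays, with the offset, against the other arrays and at 2-fold. They became 1 with the stricter filter (D2hgdh) and without multiply matching probe sets (Acox3). With the mean of all probe sets the number stayed at 2, but the genes were Acadl and Dld in place of Acox3 and D2hgdh. The 1 lower gene became 2 with the mean of all probe sets and without multiply matching ones, and 0 with the stricter filter and at 2-fold. Taking the median of all genes as zero, added after the data were seen, left each of these 1.5-fold counts as it was.

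No paired analysis was possible because each group has 1 array.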
